A study of Mus musculus with 10 samples.

Results

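The nuclear-encoded subunits of oxidative phosphorylation were taken from the gene table of the spinal cord libraries by their symbols, with a pattern that matches the Nduf, Sdh, Uqcr, *Cyc1*, Cox4 to Cox8 and Atp5 names. Of 25232 genes in the table, 97 symbols matched, and 92 of these had a mean normalised count of at least 10 and were kept. The 92 comprised 83 structural subunits, 8 assembly factors of complex I (*Ndufaf1* to *Ndufaf8*) and *Ndufs5-ps*, a pseudogene with no role in a complex. Among the structural subunits, 35 belonged to complex I, 4 to complex II, 9 to complex III, 18 to complex IV and 17 to complex V. The mitochondrial DNA also encodes subunits of complexes I, III, IV and V, and none of the 26 mitochondrial symbols and aliases looked for was among the genes of the table, so those subunits are not analysed here.

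Oxidative phosphorylation takes electrons from NADH and succinate through complexes I and II to ubiquinone, then through complex III and cytochrome c to complex IV, where oxygen is reduced to water. Complexes I, III and IV pump protons across the inner mitochondrial membrane, and complex V, the ATP synthase, uses the returning protons to make ATP. Neurons depend strongly on this pathway, and mitochondrial changes are a well known feature of motor neuron disease and of mice with mutant SOD1.

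The libraries were made from the spinal cord (the lumbar region, by the study's methods) of 10 female mice aged 90 days. C57BL/6 was given as the strain, and 5 of the mice were wild type (WT) and 5 carried SOD1 G93A. The transgenic line is B6.Cg-Tg(SOD1-G93A)1Gur/J, kept on C57BL/6J. The G93A mice carry many copies of a human SOD1 gene with an ALS mutation, driven by the human SOD1 promoter, in addition to their own *Sod1*, so that the model combines a mutant protein with a large excess of that protein. The animals were studied at an early symptomatic age, to look at transcription ahead of the loss of body weight. The only values used here are the authors' mean normalised counts, each averaged over the 10 libraries of both genotypes. These means describe how much of each transcript the tissue held and give neither the spread between animals nor a difference between WT and SOD1 G93A, and the comparison of genotypes that the table also holds was not used, so no test was made. Differences between genes are therefore given as sizes only, and whether any of them exceeds the spread between animals was not tested.

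The tissue label was checked against marker genes, and the median level per kilobase of exon (the unit explained below) was 13104 for the 5 neuronal, 10485 for the 5 oligodendrocyte, 2720 for the 5 astrocyte, 255 for the 5 microglial and 352 for the 6 motor neuron markers, against 44.0 for the 6 skeletal muscle markers. All 5 markers each of neurons, oligodendrocytes, astrocytes and microglia reached the minimum of 10. So did 6 of 6 markers of motor neurons and 5 of 5 Hox genes listed for the lumbar level. However, 63.1% of all genes in the table and all 6 skeletal muscle markers did so too. Reaching the minimum therefore does not itself mark the tissue. *Chat*, which makes acetylcholine in motor neurons, had a mean normalised count of 735, and *Mbp*, a myelin protein of oligodendrocytes, the value 319615. The lowest motor neuron markers, *Isl1* and *Mnx1*, had means of 45.6 and 37.3, below all 6 skeletal muscle markers (61.2 to 251). The 5 Hox genes listed for the lumbar level (*Hoxa10*, *Hoxc10*, *Hoxd10*, *Hoxc9* and *Hoxd9*) had a median of 83.6 per kilobase, below the 183 of expressed genes. Whether each of them is particular to that level was not tested. In bulk tissue the number of cells of a type and the amount of RNA per cell cannot be told apart, so a level below is a level of the whole tissue.

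Because a longer transcript yields more reads, levels are compared between genes as the authors' mean normalised count per kilobase of exon, named the level per kilobase here. As a background, the 14679 genes with a mean of at least 10 and a known exon length had a median level of 183 per kilobase, and the 83 structural subunits had a median of 2385. Per kilobase of exon, the subunits stood high among expressed genes. Their median percentile was 96.7, and 71 of the 83 lay in the top 10%, which began at 1001 per kilobase. The gap was smaller by mean normalised count without regard to length, with medians of 2092 for the subunits and 514 for the 15918 expressed genes. Of the 500 highest genes, 45 were members per kilobase of exon and 4 by mean normalised count. Percentiles on coding length were not computed. By comparison, the median was 2967 per kilobase for the cytosolic ribosomal proteins (79 genes) and 1162 for the proteasome subunits (38 genes), other large assemblies present in every cell. The members together took up 1.17% of all normalised counts, of which complex V held the most at 0.422%, followed by complex I at 0.307%, complex IV at 0.206%, complex III at 0.120% and complex II at 0.0908%. A few genes made up much of this sum. *Atp5b*, *Atp5a1* and *Sdha*, which encode the beta and alpha subunits of the ATP synthase head and the flavoprotein of succinate dehydrogenase, supplied 25.3% of the counts of all members.

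**Figure D1:**
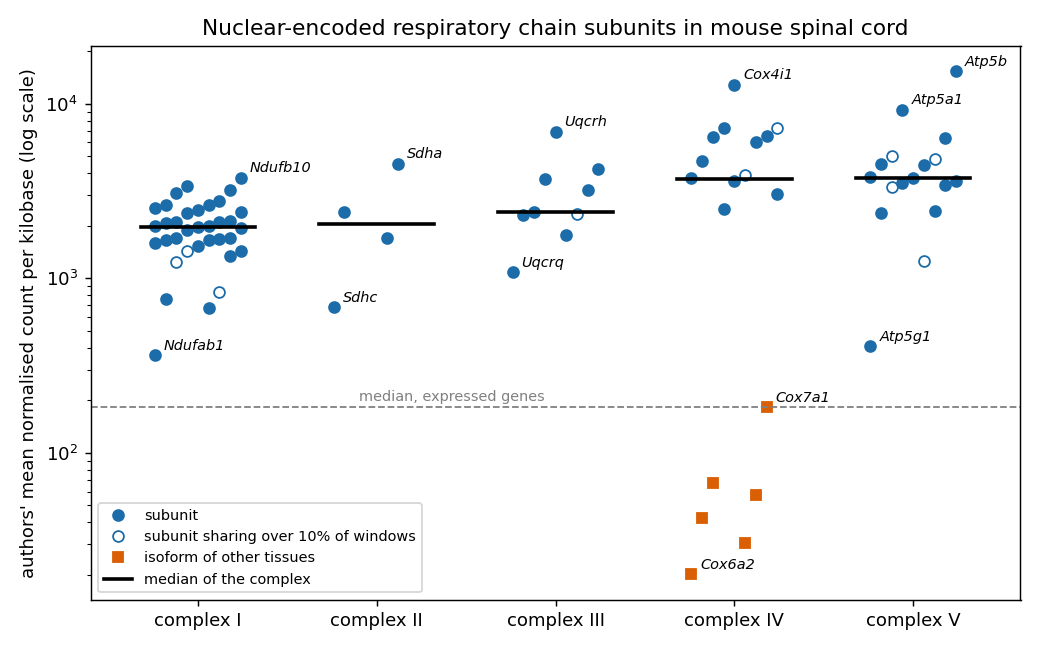
Level per kilobase (authors' mean normalised count per kilobase of exon, log scale) of the 83 structural subunits, grouped by complex I to V. Each symbol is 1 gene, open circles mark subunits with over 10% of their 100-base windows copied in another gene, orange squares are complex IV isoforms of other tissues, bars are medians and the dashed line is the median of expressed genes (183); subunits of every complex lie mostly above 1000, and the squares lie between 20.1 and 183.

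Complex V had the highest median of the complexes (3744 per kilobase), closely followed by complex IV (3687), then complex III (2385), complex II (2046) and complex I (1957). The place of complex I at the bottom held under all 8 settings of minimum and length tried. The order of complexes IV and V did not hold, because complex IV came first once its isoforms of other tissues were left out, with a median of 5369. With the exons of all annotated transcripts as length, the median of complex V was 1338, below complexes IV (1894), III (1719) and II (1460).

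**Figure D2:**
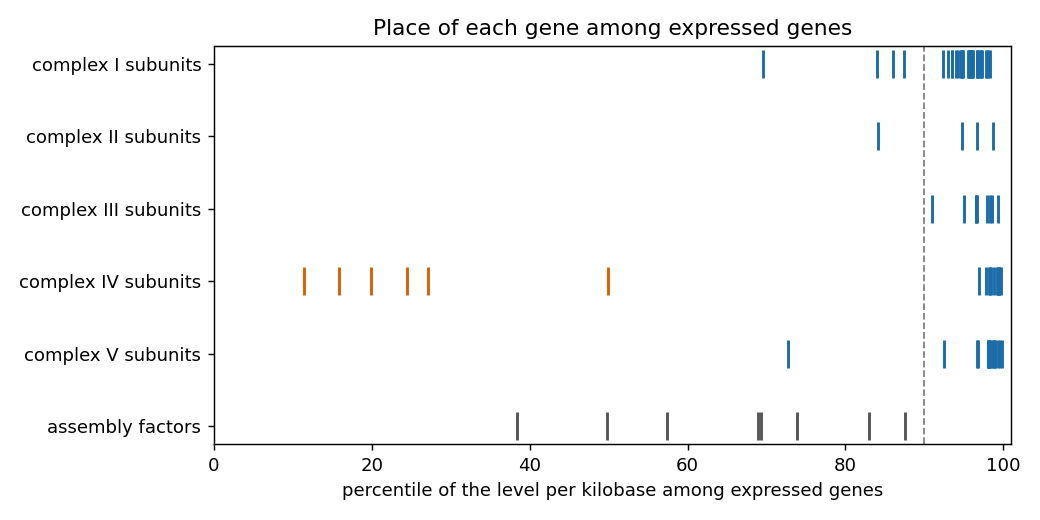
Percentile of each gene's level per kilobase among expressed genes, with 1 tick per gene and 1 row per complex, and the assembly factors of complex I in the lowest row. The dashed line marks the start of the top 10%; 71 subunits lie to its right, all 6 orange ticks (isoforms of other tissues) lie at or below the middle, and 0 of the 8 assembly factors lie to the right of the line.

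Complex I oxidises NADH and passes the electrons to ubiquinone. Its 7 nuclear-encoded core subunits, which carry the flavin and the iron-sulphur clusters or lie next to them, had a median of 1668 per kilobase. In the NADH oxidation part, the level was 2644 for *Ndufv1*, which binds NADH and the flavin, 1597 for *Ndufs1* and 1525 for *Ndufv2*. In the part that reduces ubiquinone, the level was 2634 for *Ndufs7*, 1668 for *Ndufs8* and 1433 for *Ndufs3*. The 28 supernumerary subunits, which surround the core and serve its assembly and stability, had a median of 1971 per kilobase and a span of 10.4-fold.

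Within the supernumerary subunits, *Ndufb10* was the highest at 3776 per kilobase, ahead of *Ndufb9* at 3386 and *Ndufa11* at 3087. *Ndufc2* was the middle subunit of the whole complex at 1957. At the low end stood *Ndufb4* at 833, *Ndufv3* at 756, *Ndufs4* at 676 and *Ndufab1* at 364, which were the 4 subunits of complex I outside the top 10%. *Ndufab1*, the mitochondrial acyl carrier protein that also serves fatty acid synthesis in mitochondria, had a long transcript. Its mean normalised count of 1265 was close to the 1336 of *Ndufc2*, but its exons summed to 3479 bases against 683. On coding length alone, its level was 2704 per kilobase against 3712 for *Ndufc2*.

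The 8 assembly factors help to build complex I and are not part of the finished enzyme. Their median was 357 per kilobase, with a range from 118 for *Ndufaf6* to 842 for *Ndufaf2*, and none of them reached the top 10% of expressed genes. Their highest value lay below 31 of the 35 complex I subunits. A further 44 assembly factors of all complexes, whose symbols the pattern does not match, were listed for comparison. Of these, 43 were in the table and 41 had a mean of at least 10, with a median of 301 per kilobase and the highest level (1743) for *Uqcc2*, a factor for complex III.

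Complex II, succinate dehydrogenase, links the citrate cycle to the respiratory chain and is the only complex encoded wholly in the nucleus. *Sdha*, the flavoprotein that oxidises succinate, had a mean normalised count of 13147 and a level of 4533 per kilobase. *Sdhb*, the iron-sulphur subunit, stood at 2393, and the membrane anchors *Sdhd* and *Sdhc* stood at 1699 and 681. *Sdha* was 1.89-fold above *Sdhb*, and this ratio was similar on coding length (2.04-fold). The gap between *Sdha* and *Sdhc* was not, since it was 6.66-fold per kilobase of exon and 1.55-fold per kilobase of coding sequence.

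Complex III passes electrons from ubiquinol to cytochrome c. All 9 of its nuclear-encoded subunits lay in the top 10% of expressed genes. Its catalytic subunits are *Cyc1*, which is cytochrome c1 and was the middle subunit at 2385 per kilobase, and *Uqcrfs1*, the Rieske iron-sulphur protein, at 1768. The core proteins, which face the matrix, stood at 3712 for *Uqcrc1* and 2314 for *Uqcrc2*. Per kilobase of exon, the small supernumerary subunits gave both ends of the range. *Uqcrh*, the hinge protein that helps cytochrome c to bind, was the highest at 6900, and *Uqcr10* and *Uqcr11* stood at 4229 and 3211. *Uqcrb* stood at 2326 and *Uqcrq* was the lowest at 1082. The low end depended on the length used. On coding length *Uqcrq* stood at 6692, and *Uqcrfs1* was the lowest at 2931.

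Complex IV, cytochrome c oxidase, hands electrons to oxygen, and its nuclear-encoded subunits surround a catalytic core encoded in the mitochondrial DNA. Several of these subunits exist as pairs of isoforms from separate genes, of which one form is general and the other is known chiefly from muscle, lung, testis or low oxygen. *Cox4i1*, the general form of the largest nuclear-encoded subunit, had a mean normalised count of 9845 and the highest level of the complex, 12869.5 per kilobase. *Cox6c* (7246), *Cox8a* (7244), *Cox6a1* (6501), *Ndufa4* (6431) and *Cox6b1* (6017) followed. *Ndufa4* bears a complex I name but is now counted as a subunit of complex IV. *Cox5a* stood at 4720, *Cox7c* at 3905, *Cox5b* at 3751, *Cox7a2* at 3622 and *Cox7b* at 3037. The 11 general forms thus lay within 4.24-fold of each other. *Cox7a2l*, described as a factor that joins complexes III and IV in supercomplexes, stood at 2484. Whether its protein does so in mice of this strain was not examined.

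The isoforms of other tissues lay far lower, and the 6 that reached the minimum held 0.492% of the counts of complex IV. *Cox4i1* exceeded *Cox4i2*, a form known from lung, 306-fold per kilobase (12869.5 against 42.0). For the forms known from heart and skeletal muscle, *Cox6a1* exceeded *Cox6a2* 324-fold (6501 against 20.1) and *Cox8a* exceeded *Cox8b* 237-fold (7244 against 30.5). The gap was smallest for the third muscle form, where *Cox7a2* exceeded *Cox7a1* 19.8-fold (3622 against 183). *Cox6b1* exceeded *Cox6b2*, a testis form, 89.3-fold (6017 against 67.4). *Ndufa4* exceeded *Ndufa4l2*, a gene known to respond to low oxygen, 112-fold (6431 against 57.3). These ratios kept their direction when coding length was used instead, with values between 35.6 for the Cox7a pair and 368 for the Cox8 pair.

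**Figure D3:**
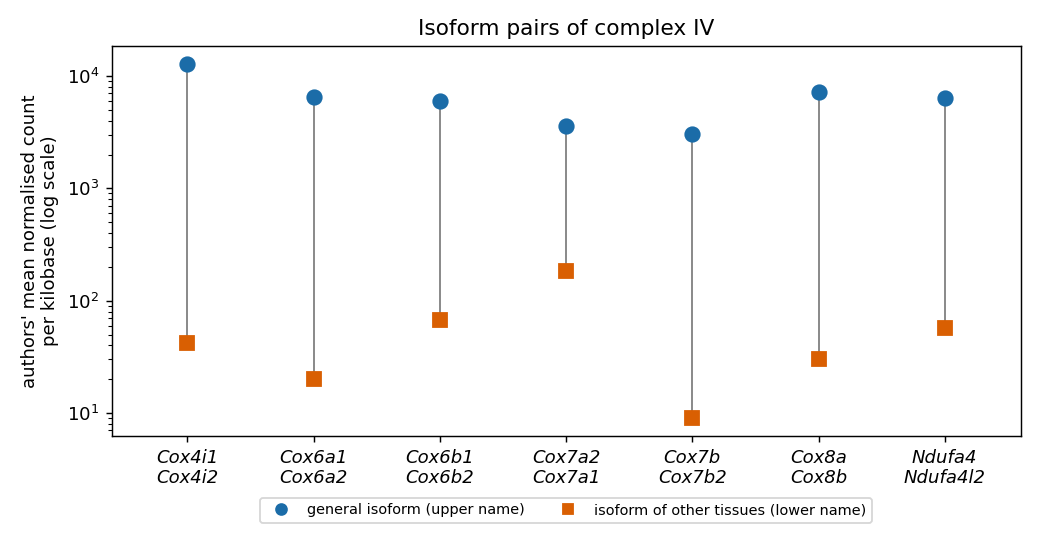
Level per kilobase (authors' mean normalised count per kilobase of exon, log scale) for 7 pairs of complex IV isoforms. Circles are the general form and squares the isoform of other tissues, joined by a line, and *Cox8c* (0.190) is not drawn; the general form is above its partner in every pair, by between 19.8-fold (Cox7a) and 337-fold (*Cox7b*, whose partner lay under the minimum of 10).

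*Cox8b* (mean normalised count 11.0) and *Cox6a2* (13.7) were also the members just inside the minimum. The 5 matching symbols outside it were *Cox7b2* at 4.88, *Cox7c-ps1* at 3.40, *Ndufb4c* at 2.35, *Ndufa11b* at 0.612 and *Cox8c* at 0.0868. *Cox7b2* and *Cox8c* are testis forms of complex IV subunits. Their levels were 9.01 and 0.190 per kilobase, against 3037 for *Cox7b* and 7244 for *Cox8a*.

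Markers of skeletal muscle, heart muscle and testis were read from the same table. All 6 skeletal muscle markers reached the minimum, with means from 61.2 to 251 (*Acta1*, skeletal actin), and so did 3 of 4 heart muscle markers, with *Myh6*, a cardiac myosin, at 358 and *Myl7*, an atrial myosin light chain, at 1.22. None of the 5 testis markers reached it, with a highest mean of 6.53 and 2 of them at 0. The part of muscle RNA in the levels of *Cox6a2*, *Cox7a1* and *Cox8b* was not tested. No marker was read for lung or low oxygen, from which *Cox4i2* and *Ndufa4l2* are known. The name "isoforms of other tissues" says where a form is chiefly known and does not exclude cells of the spinal cord. Which cells of the cord hold these transcripts was not tested.

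Complex V consists of the F1 head, which makes ATP, the membrane part Fo with its rotating ring of c subunits, and a peripheral stalk that joins them. In F1, *Atp5b*, the catalytic beta subunit, had a mean normalised count of 29473 and, at 15382 per kilobase, the highest level of all members. It ranked 16 among expressed genes per kilobase, between *Aldoa*, a glycolytic enzyme, and *Aplp1*, a neuronal membrane protein. *Atp5a1*, the alpha subunit, stood at 9258. *Atp5c1*, the gamma subunit that forms the rotating shaft, was the lowest of F1 at 2445, and *Atp5d* (delta) and *Atp5e* (epsilon) stood at 3744 and 3590. One F1 head holds several alpha and beta subunits and a single gamma subunit. The level of *Atp5b* was 6.29-fold that of *Atp5c1*, and the level of *Atp5a1* was 3.79-fold that of *Atp5c1*. On coding length these ratios were 3.77 and 2.80. *Atp5b* was also 1.66-fold above *Atp5a1* per kilobase of exon. Whether the levels follow the number of copies in the head was not tested.

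The c ring is built from identical c subunits made by 3 genes, whose mature proteins are the same. *Atp5g3* was the highest at 6366 per kilobase, *Atp5g2* stood at 1249 and *Atp5g1* at 407. Per kilobase of exon, *Atp5g3* gave 79.3% of their summed level of 8022. This share was not computed on coding length, where the levels were 10895 for *Atp5g3*, 2085 for *Atp5g2* and 4772 for *Atp5g1*. Exact copies of 86.4% of the 100-base windows of the *Atp5g2* transcript exist in pseudogenes, and reads with several places in the genome were not counted, so the level of *Atp5g2* may be understated and its order against the other genes is not settled. By these values *Atp5g3* was above both others also on coding length, by 5.23-fold over *Atp5g2* and 2.28-fold over *Atp5g1*. The order of the other two turned with the length used, as *Atp5g2* was 3.07-fold above *Atp5g1* per kilobase of exon and 0.437 times its level per kilobase of coding sequence. The exons of *Atp5g1* summed to 4778 bases, the longest of all subunits.

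The 4 peripheral stalk subunits were close to each other, with *Atp5h* at 5018, *Atp5o* at 4508, *Atp5j* at 3514 and *Atp5pb* at 3425 per kilobase, a span of 1.47-fold. The 5 supernumerary Fo subunits, which lie in the membrane and help to join synthases into dimers, ran from 4853 for *Atp5md* through *Atp5k* (4458), *Atp5mpl* (3797) and *Atp5l* (3354) to 2378 for *Atp5j2*. Apart from *Atp5g1*, all subunits of complex V lay in the top 10% of expressed genes.

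The subunit transcripts were short. Their median exon length was 765 bases against 3191 for expressed genes, and 62.7% of them were under 1000 bases against 4.77% of expressed genes. Over the 77 subunits other than the isoforms of other tissues, longer transcripts tended to have higher mean normalised counts, with a Pearson r of 0.44 and a Spearman rho of 0.43 between the log2 values. These points are genes of the same pooled libraries and not independent replicates. The genes were scattered over 19 chromosomes, and 3 were X-linked (*Cox7b*, *Ndufa1* and *Ndufb11*).

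Many of these genes have processed pseudogenes, and since the authors counted only reads that mapped to a single place, reads from a stretch with an exact copy elsewhere could be lost. Each transcript was therefore cut into overlapping windows of 100 bases, and the windows found letter for letter in the transcript of another gene were counted. Of the 83 subunits, 66 had no such window and 17 had at least 1, of which 16 shared with an annotated pseudogene. The share was highest for *Atp5g2*, at 86.4% of its windows, followed by *Atp5l* (61.3%), *Cox7c* (44.4%), *Ndufb4* (33.4%), *Atp5h* (32.7%) and *Atp5md* (28.5%). *Ndufs3*, *Ndufa12*, *Uqcrb* and *Cox6c* lay between 19.9% and 11.4%. The levels of these 10 genes are uncertain for this reason. Without them the median of the subunits was again 2385 per kilobase. The study read its fragments from both ends, in pairs, while each window was looked at singly. The share of windows is therefore not a measure of the reads lost.

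**Figure D4:**
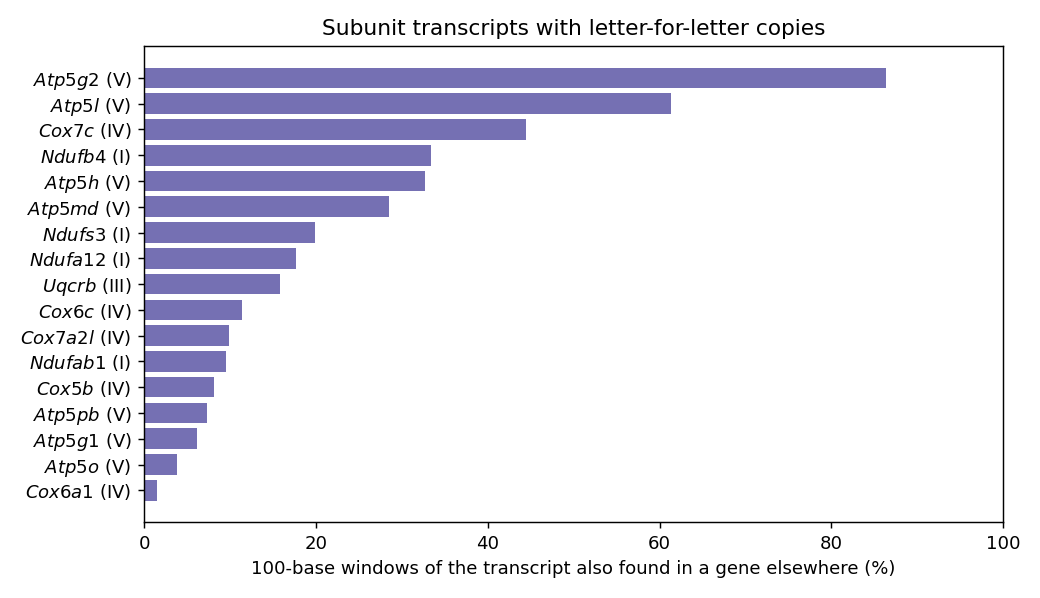
Percent of the 100-base windows of each subunit transcript that occur letter for letter in the transcript of another gene, with the complex in brackets, for the 17 subunits with any. Bars run from 1.48% for *Cox6a1* to 86.4% for *Atp5g2*, and the first 10 bars exceed 10%.

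Nuclear genes of the respiratory chain are known to be served by NRF1, by ETS family factors such as GABP (also named NRF2), and by YY1. Genes of all 3 reached the minimum of 10, as did 63.1% of all genes, with mean normalised counts of 487 for *Nrf1*, 689 for *Gabpa* and 1367 for *Yy1*. Per kilobase, *Nrf1* (91.1) and *Gabpa* (138) lay below the median of expressed genes (183) and *Yy1* (221) above it. RefSeq promoter windows, which run from 250 bases before to 50 bases after the transcription start on GRCm38.p6, were found for 67 subunits (72 windows, since some genes have several starts) and not for the other 16. Simple motif words were searched on both strands. GCGCATGC, the core of the NRF1 motif, occurred in 10 of the 72 windows (13.9%), in 4.54% of the windows of other expressed genes and in 2.71% of all promoter windows. AAGATGGC, the core of the YY1 motif, also occurred in 10 windows (13.9%), against 3.67% and 2.75%. CCGGAAGT, an ETS word, occurred in 6.94%, against 6.73% and 3.89%. TATAAA, the word of the TATA box, was searched at any place of the window and occurred in 11.1%, against 7.43% and 13.6%. A match is a run of letters and not a measured binding site.

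The NRF1 word was found for *Ndufa6*, *Ndufa8*, *Ndufa11*, *Sdhb*, *Uqcr11*, *Uqcrc1*, *Cox6a1*, *Atp5g2*, *Atp5k* and *Atp5l*, and thus in all 5 complexes. The YY1 word was found for 7 subunits of complex I (*Ndufa3*, *Ndufa9*, *Ndufb8*, *Ndufc1*, *Ndufs4*, *Ndufs6* and *Ndufs7*) and 3 of complex V (*Atp5j*, *Atp5j2* and *Atp5pb*). In 8 of these 10 windows the YY1 word lay in the last 50 bases as spelled, that is, within the start of the transcript. Among other expressed genes, this held for 246 of the 579 windows with the word. The ATG inside the word was the annotated start codon in 8 of the 8 subunit windows with the word at that place. In other expressed genes it was so in 154 of the 246 (62.6%). The median level per kilobase was 3149 for the 10 subunits with the NRF1 word and 2378 for the 57 without, 2418 with the YY1 word and 2445 without, 5018 for the 5 with the ETS word and 2389 without, and 2527 for the 7 with the TATA word and 2419 without. The groups without the NRF1, ETS or YY1 word include the isoforms of other tissues *Cox7a1* (183), *Cox6b2* (67.4) and *Cox8b* (30.5). *Cox4i1* (12869.5) and *Atp5a1* (9258) had no promoter window and are in none of the groups. The groups are small, and no difference between them was tested.

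One window of each complex is printed to show these arrangements, 5′ to 3′ on the strand of the gene, with the matched words in capitals. Coordinates are those of GRCm38.p6, and the first transcribed base, from which distances are counted, follows base 250 of each window. *Ndufs6* lies at chr13:73328433-73328732 (minus strand) and carries the YY1 word, whose first base lies 33 bases after the start. *Sdhb* lies at chr4:140961021-140961320 (plus strand) with an NRF1 word 54 bases before the start. *Uqcr11* lies at chr10:80406772-80407071 (minus strand) with an ETS word 66 bases and an NRF1 word 4 bases before the start. *Cox6a1* lies at chr5:115348909-115349208 (minus strand), where the NRF1 word on one strand overlaps that on the other and gives 2 matches. *Atp5j2* lies at chr5:145191492-145191791 (minus strand) with the YY1 word 23 bases after the start.
Ndufs6: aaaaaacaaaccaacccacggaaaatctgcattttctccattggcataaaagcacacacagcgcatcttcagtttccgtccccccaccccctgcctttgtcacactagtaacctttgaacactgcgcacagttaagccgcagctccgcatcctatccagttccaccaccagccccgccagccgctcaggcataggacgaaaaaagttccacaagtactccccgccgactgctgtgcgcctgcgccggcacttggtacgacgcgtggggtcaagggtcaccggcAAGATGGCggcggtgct
Sdhb: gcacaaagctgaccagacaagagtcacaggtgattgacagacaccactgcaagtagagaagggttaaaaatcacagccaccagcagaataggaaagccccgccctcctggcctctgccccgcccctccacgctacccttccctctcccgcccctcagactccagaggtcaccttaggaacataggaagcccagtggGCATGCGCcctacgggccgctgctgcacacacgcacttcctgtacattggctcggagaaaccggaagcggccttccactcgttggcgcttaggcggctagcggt
Uqcr11: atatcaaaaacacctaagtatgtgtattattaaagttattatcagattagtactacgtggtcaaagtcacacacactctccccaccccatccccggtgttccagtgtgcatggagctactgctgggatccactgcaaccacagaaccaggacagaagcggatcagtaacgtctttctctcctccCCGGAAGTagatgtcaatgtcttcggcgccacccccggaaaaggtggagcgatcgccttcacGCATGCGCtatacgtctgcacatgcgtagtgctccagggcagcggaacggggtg
Cox6a1: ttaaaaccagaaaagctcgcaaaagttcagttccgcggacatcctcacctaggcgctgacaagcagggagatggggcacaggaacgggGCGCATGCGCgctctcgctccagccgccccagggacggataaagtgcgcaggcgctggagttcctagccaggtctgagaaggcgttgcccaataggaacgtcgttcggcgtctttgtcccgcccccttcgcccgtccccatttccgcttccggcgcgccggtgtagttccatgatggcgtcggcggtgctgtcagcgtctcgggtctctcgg
Atp5j2: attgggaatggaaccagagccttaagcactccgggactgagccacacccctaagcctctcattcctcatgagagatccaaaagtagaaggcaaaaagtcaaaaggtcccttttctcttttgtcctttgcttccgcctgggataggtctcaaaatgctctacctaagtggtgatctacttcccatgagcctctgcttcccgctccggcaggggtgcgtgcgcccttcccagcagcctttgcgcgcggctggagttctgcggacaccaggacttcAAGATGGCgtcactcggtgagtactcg

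The subunit windows had a median GC content of 57.5% and a median ratio of observed to expected CpG of 0.80, against 60.3% and 0.71 in the windows of other expressed genes. The TATA word was found for 7 subunits, among them *Cox8b*, which at 30.5 per kilobase had the lowest level of the subunits with this word. The first base of the word lay 4 bases after the start for *Cox8b* and between 235 and 52 bases before it for the others. For *Atp5l*, *Atp5md*, *Ndufa7* and *Ndufb7* the word was on the opposite strand. Whether any of these matches works as a TATA box was not tested.

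Related pathways were read from lists of genes for comparison. The list of 16 genes of the citrate cycle and of pyruvate dehydrogenase (*Pdha1*, *Pdhb* and *Dlat*), which supply NADH and succinate to the chain, had a median of 1947 per kilobase, near that of complex I, and the lowest level was 168 for *Suclg2*. The 13 genes of the mobile electron carriers, which make ubiquinone or encode cytochrome c, had a lower median of 304. Among them *Coq9* was the highest at 704 and *Pdss2*, which builds the tail of ubiquinone, the lowest at 92.9. Cytochrome c itself (*Cycs*) stood at 592, with a mean normalised count of 1849. For the genes of these lists, levels on coding length were not given and copies elsewhere in the genome were not searched for. How far the level of *Cycs* depends on either was not tested. The 11 regulators of mitochondrial biogenesis had a median of 200, with *Esrra*, an orphan nuclear receptor, at 633 and *Gabpb1* at 49.4. The median of expressed genes, for comparison, was 183.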

How the data were processed

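RNA was sequenced from the lumbar region of 10 spinal cords (5 WT, 5 SOD1 G93A). Per the labels and the study's methods, the authors trimmed and filtered reads (Phred score and length of at least 30), aligned them to mm10 with HISAT2 2.1.0, counted uniquely mapped reads with featureCounts 2.0.2 and normalised with DESeq2 (version not given in the sources used here). The deposited signal is 1 mean normalised count per gene over all libraries. The remaining columns hold the authors' comparison of genotypes (log2 fold change, its error, Wald statistic and p-values) and were not used, so no genotype effect is given. Depth per library is unknown, the means carry no replicate error, and no interval or test was computed.

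Members had a mean of at least 10. Exon lengths came from GENCODE M21 (GRCm38) transcripts matched to RefSeq mRNAs, and coding lengths from the coding exons of the same annotation in place of RefSeq proteins. Of 15918 genes at the minimum, 92.2% had a length, and 2 member symbols were matched by an older name. Members, lists, motifs and roles were chosen with earlier results of these data known. All subunits could be named, except that some items are not reported here. The highest, middle and lowest of each complex and all isoform pairs were given in full, with up to 4 genes of other lists. Python 3.11.15, numpy 2.4.6, scipy 1.17.1 and matplotlib 3.10.9 were used. The member rule, the median and the percentile were tested on simulated data or short known lists. The other calculations were not tested in this way. Alternatives were the minimum, the length and the set of subunits.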

Additional observations from a re-analysis of the deposited data

How the results depend on the processing

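The members numbered 97 with no minimum above 0, 86 with a minimum of 100 and 83 with structural subunits only, against 92. Their share of all normalised counts was 1.15% with structural subunits only, against 1.17%. The median level per kilobase of the subunits was 2459 with a minimum of 100 and the same without the isoforms of other tissues, 4184 on coding length, and 1421 with the exons of all annotated transcripts, against 2385. The last setting and the one without subunits that share windows were chosen after seeing the data. Complex IV ranked above complex V under 4 of the 7 alternatives (a minimum of 100, coding length, all exons and without isoforms of other tissues), complex II ranked above complex III on coding length, and complex V ranked below complexes II and III with all exons (1338 against 3744). No paired analysis was possible because the values used are means over all 10 libraries, and for the same reason no library could be left out. Rankings of transcripts with long untranslated ends, such as *Ndufab1*, *Sdhc*, *Uqcrq* and *Atp5g1*, depended on the length used.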

Other observations

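*Ndufs5*, a complex I subunit, and *Ndufb1* had no row under those symbols and are not analysed here. The member *Ndufs5-ps*, singled out after its value was seen, had a mean normalised count of 1405, within the range of the complex I subunits (775 to 5197). RefSeq gives it as a transcribed pseudogene at chr16:42955580-42956079 on GRCm38, a span of 500 bases inside *Zbtb20* (chr16:42875689-43634392). *Zbtb20*, also singled out after its value was seen, had a mean of 15.1, and 96.8% of the genes at or above the minimum had a higher mean. Of the 100-base windows of the *Ndufs5* transcript, 27.0% occurred letter for letter in the pseudogene that GENCODE annotates at this place. How reads were divided between these loci was not tested.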
